A study of Mus musculus with 24 samples.

Results

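The response of Hras-expressing mouse keratinocytes to the PPAR-beta agonist GW0742 was compared between genotypes, as the GW0742 effect in Ppar-beta null cells minus the GW0742 effect in wild-type cells. Both effects were taken from 12 of the 24 arrays of the series, the ones from cells that had received the Hras retrovirus, and the comparison covered 19937 genes. The 4 groups of 3 arrays each were Ppar-beta null Hras cells with GW0742, Ppar-beta null Hras cells with DMSO, wild-type Hras cells with GW0742 and wild-type Hras cells with DMSO. The cells were primary keratinocytes of C57/BL6 mice, all 4 groups carried a retrovirus that encodes Hras for 48 h, and the ligand was given at 1 uM for 24 h. The other 12 arrays were of mock-infected cells of both genotypes with GW0742 or DMSO. They took no part in sorting genes into classes and are used further on as separate arrays. They did enter the choice of probe set for genes with several, and of some genes to name. The sources used here do not give which exons of Ppard the null allele lacks, nor whether the arrays of a group came from separate cultures or animals. The p-values therefore rest on array-to-array spread that may be technical.

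PPAR-beta, the product of Ppard, is a nuclear receptor that binds fatty acids, pairs with a retinoid X receptor and switches on genes for burning and storing fat. GW0742 is a synthetic agonist of this receptor, and cells without the receptor let its responses be sorted into those that are lost and those that remain. Activated Hras drives the ERK kinase cascade, which in keratinocytes controls growth factor release, division and the onset of differentiation.

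Genes were sorted by 3 limma tests on these 12 arrays, each at an adjusted p of 0.05 over all 19937 genes. A gene was called receptor-dependent when it changed in wild-type cells, the difference between genotypes passed against that change, and no change of the same direction passed in null cells. It was called shared when both genotypes changed in the same direction and the difference did not pass. Effects and differences are on the log2 scale of the arrays, given ± standard error with n = 3 arrays per group, and a difference is always the effect in null cells minus the effect in wild-type cells. A negative difference therefore means a smaller rise or a larger fall in null cells.

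The receptors and coregulators themselves (Ppard, its relatives, the retinoid X receptors and their partners, 17 measured) had 0 genes passing for the genotype difference in limma's test and 3 at an unadjusted p under 0.05. The 12 arrays had median log2 values within the series range of 7.46 to 7.53, and precision is set by having 3 arrays per group. The basal keratins Krt5 and Krt14, which define keratinocytes, lay between 13.98 and 14.14 and between 13.94 and 14.06 in these arrays. Ppard read 11.21, 11.47 and 11.41 in null cells with GW0742, 11.37, 11.38 and 11.34 in null cells with DMSO, 11.81, 11.80 and 11.84 in wild-type cells with GW0742 and 11.61, 11.63 and 11.69 in wild-type cells with DMSO. It was lower in null arrays but still well measured, and since the deleted part is not given, this probe set checks nothing about the labels. The null GW0742 arrays differed more among themselves than the rest: the median SD over genes was 0.122 in that group, against 0.0757 to 0.0798 in the other 3 Hras groups.

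The genotype difference passed for 103 genes (0.517% of those tested). It was positive in 14 (0.0702%) and negative in 89 (0.446%), and 1535 genes had an unadjusted p under 0.05. In null cells 331 genes changed with the ligand (1.66%), 288 of them upward (1.44%) and 43 downward (0.216%). In wild-type cells 693 genes changed (3.48%), 578 of them upward (2.9%) and 115 downward (0.577%). Sorting gave 86 receptor-dependent genes, 6 attenuated genes whose rise passed in both genotypes and was smaller in null cells, 2 genes of opposite response, 9 genes with the larger response in null cells and 146 shared genes. Most responses stayed unsorted: 453 genes changed in wild-type cells and 168 in null cells with neither the other effect nor the difference passing. The genes just inside the threshold of the difference were Coq3 (-0.59), Sema6d (-0.70) and Slc5a9 (0.45) at an adjusted p of 0.0497, and those just outside were Sox7 (1.00), S100a8 (0.82) and Mmab (-0.60) at 0.0525.

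The 2 main classes differed in how much they rested on single arrays. The difference passed for 67 genes without null DMSO replicate 2 and for 204 without null GW0742 replicate 1, and for 71 to 112 without each other array, while 63 of the 103 genes passed in all 12 such refits and 40 missed in at least 1. Receptor-dependent genes numbered 61 to 103 over these refits, and 49 of the 86 were receptor-dependent in all 12. The count of genes changed in null cells was far less stable. It was 1167 without null GW0742 replicate 1, 15 without replicate 2 and 113 without replicate 3. It was 22 and 30 without null DMSO replicates 1 and 3, and 0 when the null arrays were fitted alone, with 1763 genes at an unadjusted p under 0.05. Leaving out wild-type arrays also moved it, to 157 without DMSO replicate 2 and to 183, 188 and 176 without GW0742 replicates 1, 2 and 3. The shared class followed, with 276 genes without null GW0742 replicate 1 and 11 without replicate 2, and 8 of its 146 genes were shared in all 12 refits. All 146 had an unadjusted p under 0.05 when only the 6 null arrays were fitted, and 0 passed there after adjustment. The same arrays had entered the choice of these genes, so the unadjusted count is no support for the class.

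**Figure D1:**
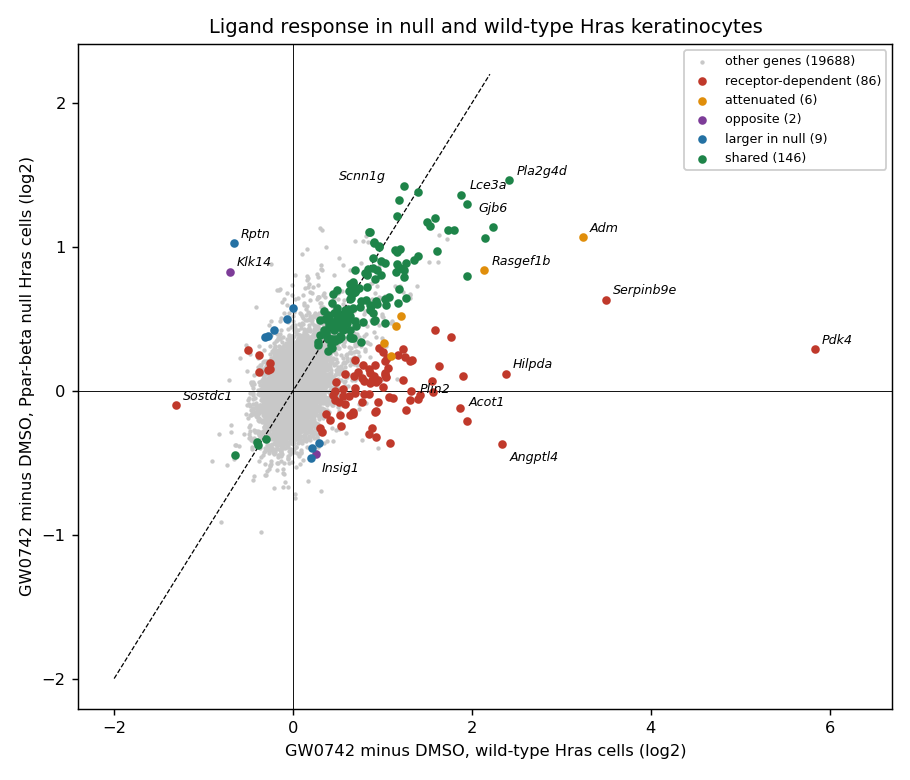
GW0742 effect in null Hras cells (vertical axis) against that in wild-type Hras cells (horizontal axis), log2 GW0742 minus DMSO, 1 point per gene, coloured by class; the dashed line marks equal effects. The 79 receptor-dependent rises lie along the horizontal axis with null effects between -0.37 and 0.63, and the 142 shared rises lie nearer the dashed line.

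Pdk4, the kinase that restrains pyruvate dehydrogenase and so spares glucose when fat is burned, had the largest difference of all genes tested. It read 6.79, 6.65 and 6.91 in null cells with GW0742, 6.42, 6.47 and 6.60 in null cells with DMSO, 12.33, 12.45 and 12.61 in wild-type cells with GW0742 and 6.71, 6.45 and 6.75 in wild-type cells with DMSO. The 3 wild-type GW0742 arrays stood apart from the other 9, which lay close together. The effect was 0.29 ± 0.10 in null cells (adjusted p = 0.22) and 5.83 ± 0.10 in wild-type cells, a difference of -5.54 ± 0.14 (adjusted p = 5.6e-10). No other of the 9 measured pyruvate dehydrogenase kinases, phosphatases and their regulators passed for the difference.

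Angptl4 encodes a secreted inhibitor of lipoprotein lipase. Its arrays read 10.31, 9.89 and 9.75 in null cells with GW0742, 10.49, 10.32 and 10.26 in null cells with DMSO, 12.02, 12.10 and 12.11 in wild-type cells with GW0742 and 9.79, 9.88 and 9.55 in wild-type cells with DMSO. All 3 null DMSO arrays were above all 3 wild-type DMSO arrays, so the null cells started higher and still ended lower than wild-type cells with the ligand. The difference was -2.71 ± 0.18 (adjusted p = 1.2e-05), from effects of -0.37 ± 0.13 in null cells (adjusted p = 0.217) and 2.34 ± 0.13 in wild-type cells. It was the 1 of 13 measured genes of the lipase and fatty acid uptake list to pass (7.69%, against 0.446% of all genes with a negative difference).

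Hilpda and Plin2 encode proteins of the lipid droplet, of which Hilpda also inhibits the breakdown of stored triglyceride. Hilpda read 8.12, 8.05 and 8.0 in null cells with GW0742, 7.94, 7.93 and 7.95 in null cells with DMSO, 10.27, 10.24 and 10.23 in wild-type cells with GW0742 and 7.83, 7.88 and 7.90 in wild-type cells with DMSO. Plin2 read 12.45, 12.33 and 12.40 in null cells with GW0742, 12.30, 12.40 and 12.47 in null cells with DMSO, 13.54, 13.60 and 13.51 in wild-type cells with GW0742 and 12.27, 12.21 and 12.22 in wild-type cells with DMSO. For both genes the wild-type GW0742 arrays stood apart from the other 9. The differences were -2.26 ± 0.08 for Hilpda (adjusted p = 7.54e-09) and -1.32 ± 0.09 for Plin2 (adjusted p = 1.2e-05). These were the 2 of 18 measured genes of lipid droplets and lipolysis that passed (11.1%, against 0.446% of all genes with a negative difference), in each of the 12 refits as well.

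**Figure D2:**
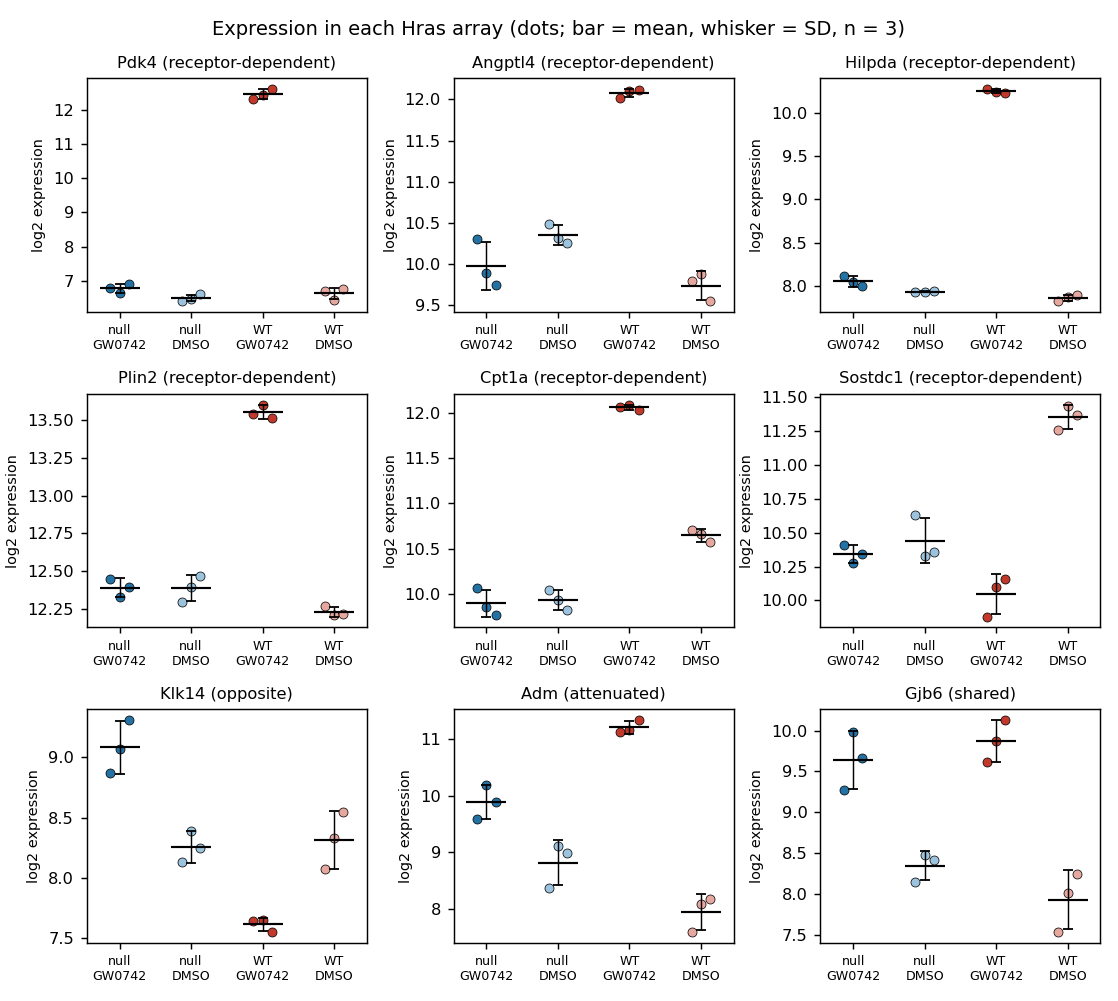
Log2 expression of 9 genes on the 12 Hras arrays, 1 dot per array with the group mean as a bar and its SD as a whisker (n = 3), groups ordered null GW0742, null DMSO, wild-type GW0742 and wild-type DMSO. Pdk4, Angptl4, Hilpda, Plin2 and Cpt1a are high in the wild-type GW0742 arrays, Sostdc1 is high in the wild-type DMSO arrays, Klk14 is high in the null GW0742 arrays, Gjb6 is high with GW0742 in both genotypes, and Adm is highest in wild-type and intermediate in null GW0742 arrays.

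Promoters of Pdk4 and Hilpda, which differed between genotypes, and of Egln3, a shared gene described further on, are printed to show the windows that were searched for motifs. Each runs from 250 bases before to 50 bases after a start site, from RefSeq on GRCm38.p6, at chr6:5496229-5496528 on the minus strand for Pdk4, chr6:29272376-29272675 on the plus strand for the later of the start sites listed for Hilpda, and chr12:54203825-54204124 on the minus strand for Egln3. Capitals mark matches on either strand to ACGTG, the core of the element bound by hypoxia-inducible factors, or to TGANTCA, the element bound by AP-1 factors such as Fos. The window of the earlier Hilpda start site, not printed, held 1 match to TGANTCA and 0 to ACGTG.
Pdk4: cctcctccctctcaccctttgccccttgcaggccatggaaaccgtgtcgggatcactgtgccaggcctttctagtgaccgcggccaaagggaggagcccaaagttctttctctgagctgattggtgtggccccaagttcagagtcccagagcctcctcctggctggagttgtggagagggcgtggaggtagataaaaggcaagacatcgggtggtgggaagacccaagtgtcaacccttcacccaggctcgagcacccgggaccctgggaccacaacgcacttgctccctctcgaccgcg
Hilpda: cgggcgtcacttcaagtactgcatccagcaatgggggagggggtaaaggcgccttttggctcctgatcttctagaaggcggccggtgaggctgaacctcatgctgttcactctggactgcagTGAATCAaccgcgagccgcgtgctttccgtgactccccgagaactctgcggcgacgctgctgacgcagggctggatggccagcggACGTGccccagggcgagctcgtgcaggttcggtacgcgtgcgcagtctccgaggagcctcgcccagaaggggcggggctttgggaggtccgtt
Egln3: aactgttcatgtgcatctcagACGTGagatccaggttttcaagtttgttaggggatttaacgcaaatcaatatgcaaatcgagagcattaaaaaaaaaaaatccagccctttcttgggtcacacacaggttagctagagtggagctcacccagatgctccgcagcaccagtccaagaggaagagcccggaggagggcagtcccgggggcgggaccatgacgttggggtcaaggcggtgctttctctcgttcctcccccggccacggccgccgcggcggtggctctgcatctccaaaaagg

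Motifs were counted by gene: a gene counted once if any of its promoter windows held a match, and some genes have several windows. DR1 is the element that PPAR and retinoid X receptor pairs bind. Its strict form (here 2 copies of AGGNCA in the same direction, 1 base apart) was found in 0 of the 65 receptor-dependent rises and 0 of the 109 shared rises with a window, against 0.411% of 15561 tested genes with one. ACGTG was in 13 of the 65 receptor-dependent genes (20.0%) and 35 of the 109 shared genes (32.1%), against 24.4% of all. TGANTCA was in 7 of 65 (10.8%) and 21 of 109 (19.3%), against 8.07% of all. Each short motif was found in a larger share of the shared genes than of all genes, as a description of these windows with no test. The number of windows per gene was not compared between the sets. A match is not a bound site, and the absence of the repeat from these windows says nothing of sites elsewhere.

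The mitochondrial enzymes that burn fatty acids formed the clearest group among receptor-dependent genes. Of 20 measured genes of the carnitine shuttle and mitochondrial oxidation, 10 passed for the difference and all 10 were negative, against 0.446% of all genes. The median effect was -0.05 in null cells, where 0 of the 20 passed in limma's test and 5 had an unadjusted p under 0.05 (4 of them negative), and 0.60 in wild-type cells, where 11 rose (2.9% of all genes). The median difference was -0.66, against 0.01 over all genes, and the count of negative differences stayed at 9 to 11 when single arrays were left out. The passing genes cover the pathway from entry to the last thiolase step: Cpt1a and Cpt2, which put fatty acids onto and take them off carnitine, Slc25a20, which carries them across the inner membrane, Acadl for the first oxidation, Hadha and Hadhb of the trifunctional enzyme, the thiolase Acaa2, Decr1 and Eci2 for unsaturated fatty acids, and Etfb for electron transfer. Members whose difference did not pass include Acadm, Acads, Acadvl, Hadh and Echs1 of the same spiral and the flavoprotein partners Etfa and Etfdh.

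Cpt1a, the rate-limiting step of the shuttle, read 10.06, 9.86 and 9.77 in null cells with GW0742, 10.04, 9.93 and 9.82 in null cells with DMSO, 12.06, 12.09 and 12.03 in wild-type cells with GW0742 and 10.71, 10.66 and 10.57 in wild-type cells with DMSO. The null arrays were lower than the wild-type arrays with and without ligand, and the wild-type GW0742 arrays stood above the other 9. The difference was -1.45 ± 0.11 (adjusted p = 3.57e-05). Hadhb read 9.48, 9.51 and 9.33 in null cells with GW0742, 9.21, 9.22 and 9.27 in null cells with DMSO, 10.58, 10.70 and 10.67 in wild-type cells with GW0742 and 9.24, 9.38 and 9.42 in wild-type cells with DMSO. Its DMSO arrays overlapped between genotypes, and its difference was -1.09 ± 0.10 (adjusted p = 0.000118). The remaining 8 had differences between -1.25 ± 0.14 for Decr1 (adjusted p = 0.000958) and -0.71 ± 0.10 for Acadl (adjusted p = 0.00549). Cpt2 missed the threshold in 2 of the 12 refits. The 13 measured genes of peroxisomal oxidation, where very long fatty acids are shortened, had a median difference of -0.28, and 0 passed in limma's test, while 6 had an unadjusted p under 0.05, all negative. Acot4, a peroxisomal thioesterase, had the lowest value there, -0.96 ± 0.19 (adjusted p = 0.0576).

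Acyl-CoA thioesterases free fatty acids from coenzyme A, and 3 of 8 measured members passed for the difference, all negative (37.5%, against 0.446% of all genes). Acot1, in the cytosol, read 7.54, 7.55 and 7.46 in null cells with GW0742, 7.80, 7.59 and 7.51 in null cells with DMSO, 9.48, 9.59 and 9.33 in wild-type cells with GW0742 and 7.53, 7.64 and 7.64 in wild-type cells with DMSO, a difference of -1.98 ± 0.12 (adjusted p = 6.44e-06). Its mitochondrial neighbour Acot2 read 12.34, 12.18 and 12.30 in null cells with GW0742, 12.54, 12.54 and 12.63 in null cells with DMSO, 12.57, 12.68 and 12.56 in wild-type cells with GW0742 and 11.54, 11.73 and 12 in wild-type cells with DMSO. The null DMSO level of Acot2 thus lay as high as the wild-type level with ligand, and the difference of -1.14 ± 0.14 (adjusted p = 0.00165) came with a null baseline 0.81 above the wild-type one. Acot1 and Acot2 are near-identical copies, so how their probes share signal is uncertain. Acot5 had a difference of -0.84 ± 0.14 (adjusted p = 0.0143), which passed in 8 of 12 refits. Me1, malic enzyme, was the 1 of 17 fatty acid synthesis genes to pass (5.88%, against 0.446% of all genes), at -0.58 ± 0.09 (adjusted p = 0.00695).

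Abca1, which exports cholesterol, read 9.51, 9.61 and 9.38 in null cells with GW0742, 9.42, 9.49 and 9.38 in null cells with DMSO, 11.02, 11.14 and 11.22 in wild-type cells with GW0742 and 9.59, 9.54 and 9.59 in wild-type cells with DMSO. Its wild-type GW0742 arrays stood above the other 9 arrays, and the difference was -1.48 ± 0.10 (adjusted p = 1.25e-05). Insig1, which holds the sterol sensor in the endoplasmic reticulum, was 1 of the 2 genes that moved in opposite directions. It read 11.28, 11.12 and 11.11 in null cells with GW0742, 11.55, 11.62 and 11.65 in null cells with DMSO, 11.18, 11.21 and 11.17 in wild-type cells with GW0742 and 10.95, 10.92 and 10.91 in wild-type cells with DMSO. The genotypes lay far apart in DMSO and met with the ligand. Insig1 fell in null cells (-0.44 ± 0.06, adjusted p = 0.00903) and rose in wild-type cells (0.26 ± 0.06, adjusted p = 0.0344), a difference of -0.70 ± 0.09 (adjusted p = 0.00176).

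Sterol synthesis genes had median effects of -0.18 in null and 0.10 in wild-type cells. Of 20 measured, 2 fell in null cells and 4 rose in wild-type cells, and 14 had an unadjusted p under 0.05 in null cells, all negative. For the difference 15 had an unadjusted p under 0.05, all negative, and 4 passed (20.0%, against 0.446% of all genes): Insig1, the mevalonate enzyme Mvd (-0.61 ± 0.11, adjusted p = 0.0213), the cyclase Lss (-0.56 ± 0.10, adjusted p = 0.0196) and Hsd17b7 (-0.42 ± 0.07, adjusted p = 0.0244). Mvd and Lss each passed in 6 and Hsd17b7 in 4 of the 12 refits. The list kept 1 passing gene without wild-type DMSO replicate 2, without wild-type GW0742 replicate 2 or without null DMSO replicate 2, and 19 of the 20 members had a negative difference.

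Several receptor-dependent genes with large differences have no place in lipid use. Serpinb9e, a mouse relative of the serpin that inhibits granzyme B, read 8.12, 7.86 and 7.43 in null cells with GW0742, 6.60, 7.51 and 7.41 in null cells with DMSO, 10.13, 9.84 and 10.06 in wild-type cells with GW0742 and 6.45, 6.46 and 6.64 in wild-type cells with DMSO. The effect was 0.63 ± 0.21 in null cells (adjusted p = 0.209) and 3.50 ± 0.21 in wild-type cells, and the difference was -2.87 ± 0.30 (adjusted p = 0.000547). Its cluster holds near-identical copies, so which copy the probes read is uncertain. It was the 1 of 21 measured clade B serpins that passed (4.76%, against 0.446% of all genes with a negative difference).

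Ppef1, a calcium-linked phosphatase, read 5.34, 5.03 and 4.96 in null cells with GW0742, 5.47, 5.15 and 5.35 in null cells with DMSO, 7.80, 7.83 and 7.44 in wild-type cells with GW0742 and 5.55, 5.78 and 5.92 in wild-type cells with DMSO. Snai3, a zinc finger repressor of the Snail family, read 7.42, 7.61 and 7.63 in null cells with GW0742, 7.46, 7.55 and 7.32 in null cells with DMSO, 10.19, 10.19 and 10.28 in wild-type cells with GW0742 and 8.15, 8.35 and 8.45 in wild-type cells with DMSO. For both genes the null arrays with and without ligand overlapped or lay close together, below the wild-type ones. The differences were -2.16 ± 0.19 for Ppef1 (adjusted p = 0.000101) and -1.80 ± 0.13 for Snai3 (adjusted p = 1.32e-05). Lgals9, which encodes the sugar-binding galectin-9, differed by -1.58 ± 0.12 (adjusted p = 3.57e-05), Spin4, of a family that reads histone marks, by -1.46 ± 0.11 (adjusted p = 3.57e-05), and Erc2, known as a presynaptic scaffold, by -1.46 ± 0.12 (adjusted p = 4.17e-05).

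Among genes downstream of Ras and ERK, single genes were receptor-dependent. Fos, a subunit of AP-1 and an immediate early gene, read 8.19, 8.62 and 8.50 in null cells with GW0742, 7.71, 8.27 and 8.22 in null cells with DMSO, 9.35, 9.56 and 9.61 in wild-type cells with GW0742 and 7.68, 7.81 and 7.72 in wild-type cells with DMSO. The null groups overlapped and the wild-type groups did not. The effect was 0.37 ± 0.14 in null and 1.77 ± 0.14 in wild-type cells, a difference of -1.40 ± 0.20 (adjusted p = 0.00549) that passed in all 12 refits. Fos was the 1 of 29 measured ERK feedback and immediate early genes to pass (3.45%, against 0.446% of all genes with a negative difference). Without null DMSO replicate 1, 6 of the 29 passed. In the main fit 9 of the 29 differences had an unadjusted p under 0.05, 8 of them negative, and 21 lay below 0. Of the same 29 genes 3 rose in null cells (1.44% of all genes) and 12 in wild-type cells (2.9%). Egr1, another immediate early gene, had a difference of -0.93 ± 0.25 (adjusted p = 0.218).

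Of 9 measured EGF receptor ligands, which carry Ras signals out of the cell and back to its neighbours, 2 passed for the difference, both negative (22.2%, against 0.446% of all genes), and 0 of 9 passed in null cells by limma (1.44% of all genes rose there, and 2 of the 9 had an unadjusted p under 0.05), while 5 rose in wild-type cells (2.9% of all genes). Hbegf read 11.75, 11.91 and 11.77 in null cells with GW0742, 11.50, 11.57 and 11.48 in null cells with DMSO, 12.01, 12.20 and 12.20 in wild-type cells with GW0742 and 11.18, 11.19 and 11.18 in wild-type cells with DMSO, a difference of -0.66 ± 0.10 (adjusted p = 0.00664). The null arrays of Hbegf did not overlap between ligand and DMSO either, with an effect of 0.30 ± 0.07 (adjusted p = 0.053). Ereg read 9.96, 10.07 and 9.87 in null cells with GW0742, 9.60, 9.88 and 9.73 in null cells with DMSO, 9.54, 9.81 and 9.73 in wild-type cells with GW0742 and 8.48, 8.59 and 8.86 in wild-type cells with DMSO. Its null DMSO baseline was 1.09 above the wild-type one, the highest among receptor-dependent rises, so that wild-type cells with the ligand reached the level that null cells had without it. The difference of Ereg, -0.82 ± 0.15 (adjusted p = 0.0367), passed in 4 of the 12 refits, and the list count was 1 in 8 of them.

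Cxcl1 and Cxcl2, chemokines that draw neutrophils, had differences that passed in all 12 refits. Cxcl1 read 10.11, 9.90 and 10.10 in null cells with GW0742, 10.42, 10.45 and 10.35 in null cells with DMSO, 11.30, 10.93 and 11.17 in wild-type cells with GW0742 and 10.16, 10.27 and 9.74 in wild-type cells with DMSO. Cxcl2 read 7.08, 7.30 and 7.12 in null cells with GW0742, 6.95, 7.54 and 7.40 in null cells with DMSO, 9.32, 8.88 and 8.84 in wild-type cells with GW0742 and 7.73, 7.78 and 7.73 in wild-type cells with DMSO. The null arrays of Cxcl1 lay lower with the ligand than without it, and those of Cxcl2 overlapped. The differences were -1.44 ± 0.18 for Cxcl1 (adjusted p = 0.00194) and -1.40 ± 0.21 for Cxcl2 (adjusted p = 0.00718).

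With the plasminogen activator Plat (-0.88 ± 0.16, adjusted p = 0.0362) and the urokinase receptor Plaur (-0.80 ± 0.14, adjusted p = 0.0278), these chemokines made up the 4 of 30 measured senescence regulators and secretory factors that passed, all negative (13.3%, against 0.446% of all genes). Plat passed in 2 and Plaur in 5 of the 12 refits, where the list count was 2 in 6 of them and 6 without null GW0742 replicate 1. The cytokine Csf2 had a difference of -1.35 ± 0.32 (adjusted p = 0.129). For the difference 0 passed in limma's test in the lists of cell cycle (7 of 38 measured at an unadjusted p under 0.05), unfolded protein response (6 of 22), NRF2 and antioxidant (3 of 17) and interferon response genes (1 of 21). The Ras exchange and PI3K list (25 measured) and the TGF-beta list (21) had 1 passing gene each, Rasgef1b and Id2, described further on.

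Only 7 receptor-dependent genes fell in wild-type cells, and their falls were smaller. Sostdc1, a secreted antagonist of BMP and Wnt signals, read 10.41, 10.28 and 10.34 in null cells with GW0742, 10.63, 10.33 and 10.36 in null cells with DMSO, 9.88, 10.10 and 10.16 in wild-type cells with GW0742 and 11.26, 11.44 and 11.37 in wild-type cells with DMSO. Null cells without ligand were already 0.91 below wild-type cells, and the ligand took wild-type cells below them. The effect was -0.10 ± 0.09 in null cells and -1.31 ± 0.09 in wild-type cells (adjusted p = 5.89e-06), a difference of 1.21 ± 0.13 (adjusted p = 0.000761). Ephb6, an Eph receptor without kinase activity, differed by 0.79 ± 0.09 (adjusted p = 0.00119) and the adhesion receptor Adgrg7 by 0.62 ± 0.09 (adjusted p = 0.00536). Timp3, an inhibitor of matrix proteases (0.52 ± 0.10, adjusted p = 0.0397), passed in 2 of 12 refits, and the sugar carrier Slc5a9 and pyruvate carboxylase Pcx in 1 each.

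Klk14, a serine protease of the kallikrein family that helps shed the outer epidermis, was the other gene with opposite responses. It read 8.87, 9.07 and 9.31 in null cells with GW0742, 8.13, 8.39 and 8.25 in null cells with DMSO, 7.64, 7.65 and 7.55 in wild-type cells with GW0742 and 8.07, 8.33 and 8.55 in wild-type cells with DMSO. The DMSO arrays of the genotypes overlapped, and the GW0742 arrays lay on either side of them. Klk14 rose by 0.83 ± 0.13 in null cells (adjusted p = 0.0122) and changed by -0.71 ± 0.13 in wild-type cells (adjusted p = 0.00699). The difference was 1.53 ± 0.18 (adjusted p = 0.0012) and passed in all 12 refits. The sorting as opposite was less steady. That class held 0 genes without null DMSO replicate 3 or null GW0742 replicate 2, so neither Klk14 nor Insig1 kept it throughout. It held 13 genes without null GW0742 replicate 1 and 1 or 2 without each other array.

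In wild-type cells 0 of the 9 genes with the larger response in null cells passed by limma, and their estimates lay near 0 or leaned the other way. In 6 of them null effects of 0.38 to 1.02 stood beside wild-type effects of -0.66 to -0.0. In the other 3 null effects of -0.46 to -0.37 stood beside wild-type effects of 0.20 to 0.29. Among the 9 genes Id2, an inhibitor of basic helix-loop-helix factors, was among the steadiest. It read 11.31, 11.45 and 11.36 in null cells with GW0742, 10.73, 10.80 and 10.85 in null cells with DMSO, 10.61, 10.50 and 10.64 in wild-type cells with GW0742 and 10.60, 10.62 and 10.53 in wild-type cells with DMSO. The 3 null GW0742 arrays stood above the other 9, and the difference was 0.58 ± 0.09 (adjusted p = 0.00868). Lrrn4cl differed by 0.66 ± 0.10 (adjusted p = 0.0079), with Id2 in all 12 refits. The cornified envelope gene Rptn had the largest value, 1.69 ± 0.33 (adjusted p = 0.0446), but passed in 2 of 12 refits, and the calcium-binding S100a9 (0.69 ± 0.12, adjusted p = 0.0182) passed in 7. Nceh1, a cholesterol ester hydrolase, and the lipid kinase Dgkh fell in null cells, with differences of -0.65 ± 0.11 (adjusted p = 0.0194) and -0.66 ± 0.12 (adjusted p = 0.0293) that passed in 6 and 2 refits.

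Of the 6 attenuated genes, Adm, which encodes the vessel-widening peptide adrenomedullin, had the largest difference. It read 9.59, 10.19 and 9.89 in null cells with GW0742, 8.37, 9.11 and 8.99 in null cells with DMSO, 11.12, 11.15 and 11.33 in wild-type cells with GW0742 and 7.60, 8.10 and 8.18 in wild-type cells with DMSO. It rose in both genotypes, by 1.07 ± 0.20 in null cells (adjusted p = 0.029) and 3.24 ± 0.20 in wild-type cells, with a difference of -2.17 ± 0.29 (adjusted p = 0.00313) that passed in all 12 refits. Acsbg1, which activates long fatty acids, rose by 0.24 ± 0.05 in null cells (adjusted p = 0.0475) and by 1.09 ± 0.05 in wild-type cells, a difference of -0.85 ± 0.08 (adjusted p = 0.000101). Rasgef1b, an exchange factor for Ras-family proteins, differed by -1.30 ± 0.25 (adjusted p = 0.0412) and passed in 2 refits. The split from the receptor-dependent genes rests on the null effect, and with a separate weight for each group 0 genes were attenuated.

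Of the 146 shared genes, 11 were on the glycolysis and hypoxia list, 6 on the differentiation list, 4 each on the lists of connexins and channels and of phospholipases and prostaglandin enzymes, 2 on the epidermal barrier list and 2 on the lipase and fatty acid uptake list, and most were on no list. Its 142 rises had median effects of 0.60 in null and 0.69 in wild-type cells, with a median difference of -0.08. For 89 of them the 95% interval of the difference lay within a 1.5-fold change either way, and for the rest the interval reached past that size. Among the 4 shared falls Hap1 fell by 0.36 in null and by 0.40 in wild-type cells and was shared in 9 of 12 refits.

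The 8 genes shared in all 12 refits, named after their values were seen, were Pla2g4d, Ivl, Il1f6, Sprr3, Mal, Prelid2, Sema7a and Slc6a14. Pla2g4d, a cytosolic phospholipase of stratified epithelium, read 8.97, 9.56 and 8.97 in null cells with GW0742, 7.38, 7.93 and 7.80 in null cells with DMSO, 9.37, 9.71 and 9.89 in wild-type cells with GW0742 and 7.11, 7.23 and 7.38 in wild-type cells with DMSO. Both genotypes rose without overlap, by 1.46 ± 0.18 in null (adjusted p = 0.00772) and 2.41 ± 0.18 in wild-type cells. Its difference was -0.95 ± 0.26 (adjusted p = 0.205) with a 95% interval of -1.51 to -0.39. That interval, not adjusted for the number of genes, lies wholly below 0, on the side of a smaller rise in null cells. Pla2g4d is thus shared only in that its adjusted p did not pass, and an equal rise is not shown.

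Ivl, involucrin of the cornified envelope, read 12.24, 12.52 and 12.39 in null cells with GW0742, 11.80, 11.79 and 11.82 in null cells with DMSO, 12.54, 12.46 and 12.62 in wild-type cells with GW0742 and 11.76, 11.85 and 11.78 in wild-type cells with DMSO. Il1f6, a cytokine of the interleukin-1 family, read 8.77, 9.01 and 8.91 in null cells with GW0742, 7.97, 8.0 and 7.82 in null cells with DMSO, 9.32, 9.33 and 9.43 in wild-type cells with GW0742 and 8.27, 8.21 and 8.10 in wild-type cells with DMSO. In both genes the ligand arrays lay above the DMSO arrays in each genotype. The rises were 0.58 ± 0.07 in null and 0.74 ± 0.07 in wild-type cells for Ivl, with a difference interval of -0.39 to 0.07, and 0.96 ± 0.08 in null and 1.16 ± 0.08 in wild-type cells for Il1f6. Sprr3, another envelope protein, rose by 0.68 ± 0.09 in null and 0.65 ± 0.09 in wild-type cells; its family holds near-identical copies.

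Connexins and sodium channel subunits showed some of the largest shared rises. Gjb6, a gap junction protein, read 9.27, 9.98 and 9.67 in null cells with GW0742, 8.14, 8.48 and 8.41 in null cells with DMSO, 9.62, 9.87 and 10.13 in wild-type cells with GW0742 and 7.53, 8.01 and 8.24 in wild-type cells with DMSO. It rose by 1.29 ± 0.20 in null (adjusted p = 0.0127) and 1.95 ± 0.20 in wild-type cells, and was shared in 9 of 12 refits. The difference of Gjb6, -0.65, was on the side of a smaller rise in null cells. It did not pass, and an equal rise is not shown. Scnn1g, a subunit of the epithelial sodium channel, read 8.47, 9.37 and 8.71 in null cells with GW0742, 7.12, 7.63 and 7.53 in null cells with DMSO, 8.54, 8.63 and 8.90 in wild-type cells with GW0742 and 7.22, 7.59 and 7.54 in wild-type cells with DMSO. Null replicate 2 with GW0742 stood highest of the 3 for both genes. The difference of Scnn1g was 0.18 ± 0.29, with an interval of -0.45 to 0.81. Of the 16 measured connexins and channels 0 passed for the difference in limma's test (3 at an unadjusted p under 0.05), 5 rose in null cells (1.44% of all genes) and 4 in wild-type cells (2.9%), and the null count was 0 to 8 over the refits.

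Genes of glycolysis and the hypoxia response rose in both genotypes. Egln3, a prolyl hydroxylase that marks hypoxia-inducible factor for destruction, read 10.87, 11.36 and 11.24 in null cells with GW0742, 9.53, 10.23 and 10.20 in null cells with DMSO, 11.05, 10.98 and 11.42 in wild-type cells with GW0742 and 9.53, 9.61 and 9.83 in wild-type cells with DMSO. It rose by 1.17 ± 0.19 in null (adjusted p = 0.0134) and 1.49 ± 0.19 in wild-type cells, and Bnip3, a mitophagy receptor, by 0.81 ± 0.13 and 0.98 ± 0.13. Of 28 measured list members, 12 rose in null cells (1.44% of all genes) and 20 in wild-type cells (2.9%), 11 were shared, and the median difference was -0.14 with 1 gene passing, Adm. The median effect was 0.34 in null and 0.47 in wild-type cells, 24 of the 28 differences were below 0, and 7 had an unadjusted p under 0.05, all negative. The null count was 0 without null DMSO replicate 1 or null GW0742 replicate 2, 14 without null GW0742 replicate 1 and 0 with a separate weight for each group, and the wild-type count was 13 without wild-type GW0742 replicate 3.

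In the epidermal lists genes rose in both genotypes. Of 44 measured differentiation genes 11 rose in null cells (1.44% of all genes) and 16 in wild-type cells (2.9%), with medians of 0.48 and 0.36 and no test of the medians, and 1 passed for the difference, Rptn. The null count was 2 to 16 over the refits. Tgm1, the transglutaminase that crosslinks the envelope, rose by 0.79 in null and 1.24 in wild-type cells and was shared in 8 refits, and Lce3a, whose family holds near-identical copies, by 1.36 ± 0.21 and 1.88 ± 0.21 in 9. Of 18 measured genes of the epidermal lipid barrier 2 rose in null and 11 in wild-type cells, beside those same shares of all genes, with medians of 0.51 and 0.46 and 0 differences passing in limma's test (2 at an unadjusted p under 0.05). The null count was 0 to 9 over the refits. Of these, Alox12b, a lipoxygenase needed for the water barrier, rose by 1.12 in null and 1.80 in wild-type cells. The barrier list shows how the sorting depends on spread: 9 of its wild-type rises had neither a null effect nor a difference that passed. Of 16 measured group IV phospholipases and prostaglandin enzymes 4 rose in null cells (1.44% of all genes) and 7 in wild-type cells (2.9%), and 0 passed for the difference in limma's test (6 at an unadjusted p under 0.05), or 2 without null DMSO replicate 1. Of 17 basal keratinocyte genes 0 passed for the difference (1 at an unadjusted p under 0.05). Fabp4, a fatty acid carrier and a common PPAR target, was sorted as shared, in 11 of 12 refits. It rose by 0.97 ± 0.13 in null (adjusted p = 0.00903) and 1.60 ± 0.13 in wild-type cells. Its difference was -0.64 ± 0.19 (adjusted p = 0.267), and a difference that does not pass does not show equal rises.

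**Figure D3:**
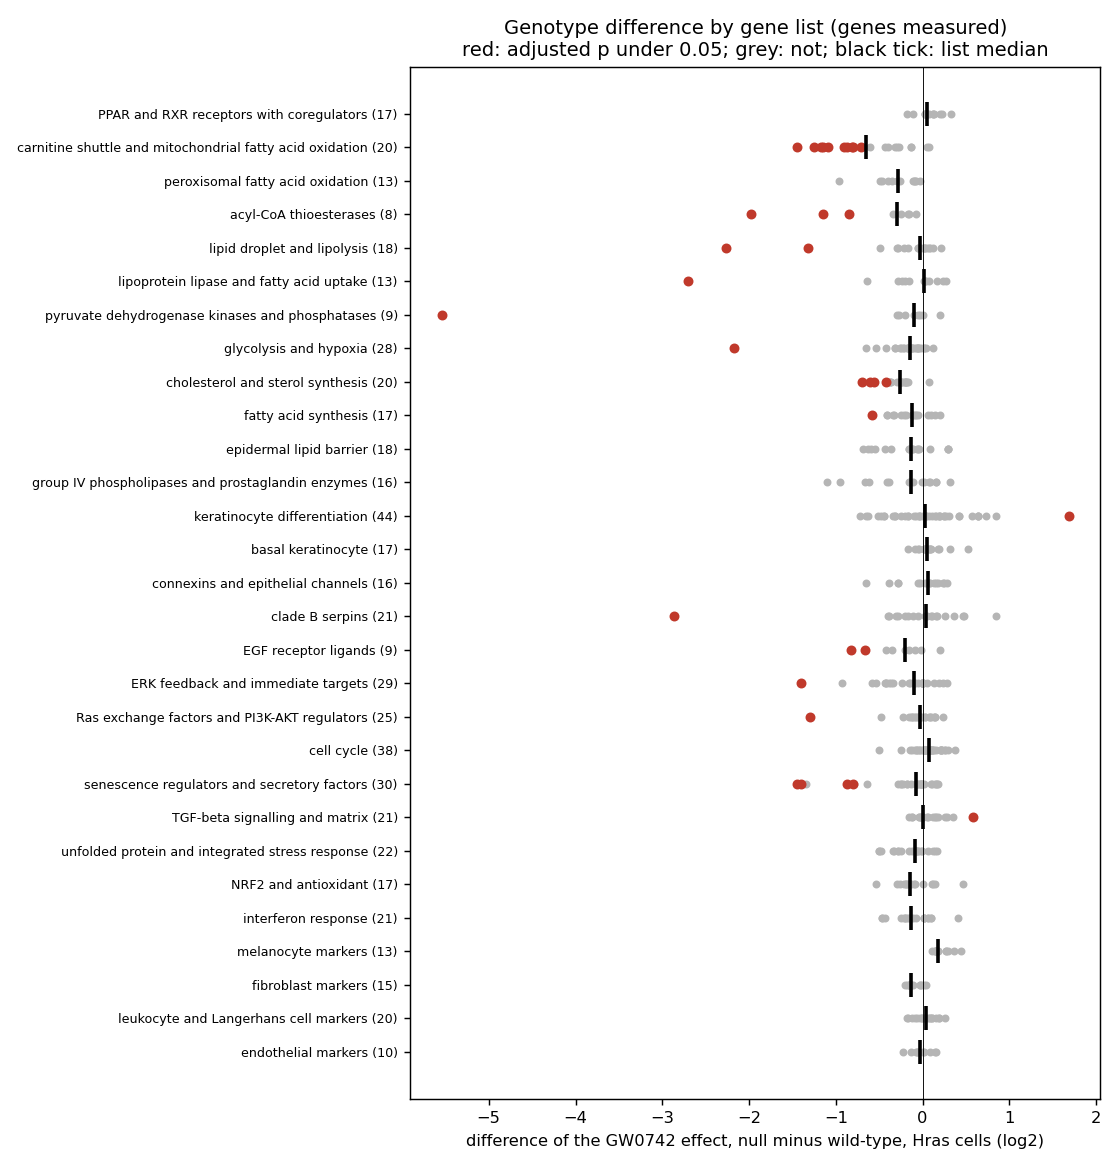
Genotype difference of the GW0742 effect (log2, null minus wild type) for the measured members of each gene list, 1 point per gene, in red where the adjusted p is under 0.05 and grey where not, with the list median as a black tick. The mitochondrial fatty acid oxidation list has the lowest median, -0.66, and most other lists have medians near 0.

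**Figure D4:**
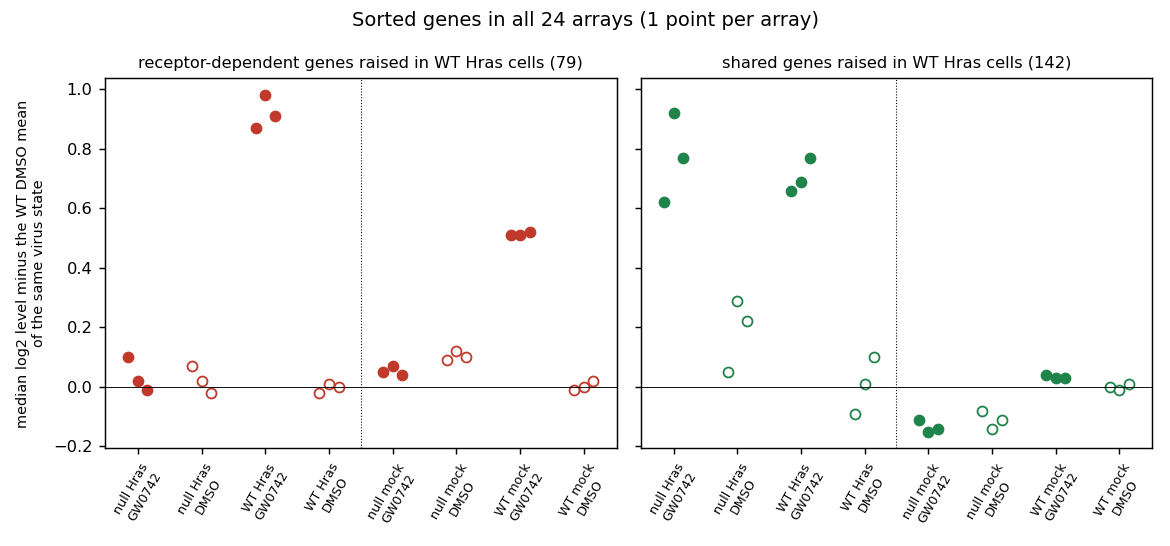
Median over the genes of a class of each Hras and mock array's log2 value minus the wild-type DMSO mean of the same virus state, for receptor-dependent rises (left) and shared rises (right), filled with GW0742 and open with DMSO. For receptor-dependent rises the null Hras GW0742 arrays lie at 0.10, 0.02 and -0.01 and the wild-type Hras GW0742 arrays at 0.87, 0.98 and 0.91; for shared rises they lie at 0.62, 0.92 and 0.77 and at 0.66, 0.69 and 0.77.

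Class medians by array showed what the null cells contributed, as a description, since these arrays chose the classes. Over the 79 receptor-dependent rises the medians were 0.10, 0.02 and -0.01 in null GW0742 arrays, 0.07, 0.02 and -0.02 in null DMSO arrays and 0.87, 0.98 and 0.91 in wild-type GW0742 arrays, relative to the wild-type DMSO mean. Over the 142 shared rises they were 0.62, 0.92 and 0.77 in null GW0742 arrays, 0.05, 0.29 and 0.22 in null DMSO arrays and 0.66, 0.69 and 0.77 in wild-type GW0742 arrays. The wild-type DMSO arrays lay at -0.09, 0.01 and 0.10, and replicate 1 was the lowest for shared rises in each of the 4 Hras groups.

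Without ligand, receptor-dependent genes did not sit at a single level in null cells. Of the 79 rises, all 3 null DMSO arrays were above all 3 wild-type DMSO arrays in 28 (35.4%, against 18.5% of all genes) and below them in 23 (29.1%, against 15.2%), with a median baseline of 0.02 and a range of -0.87 to 1.09. Ereg (1.09), Acot5 (0.94), Acot2 (0.81), Insig1 (0.68, not a receptor-dependent gene by the sort) and Angptl4 (0.62) started higher in null cells, and Snai3 (-0.87), Cpt1a (-0.72) and Vnn1 (-0.70), which makes pantothenate from pantetheine, started lower. In 71 of the 79 genes all null DMSO arrays still lay below all wild-type GW0742 arrays. The 7 receptor-dependent falls were lower in null DMSO arrays, without overlap in 6 of them. Their class median was -0.48, -0.45 and -0.47 in null DMSO arrays and -0.44, -0.32 and -0.35 in wild-type GW0742 arrays. Gene by gene, the null DMSO mean was at or above the wild-type GW0742 mean in 4 of the 7, Sostdc1 among them, and all 3 null DMSO arrays lay below all 3 wild-type GW0742 arrays in the other 3. The wild-type DMSO arrays enter both this baseline and the sorting, so these values are given with no test. In mock cells, whose arrays were not used for sorting, 33 of the 79 were higher in null DMSO arrays (41.8%, against 17.4%) and 12 lower (15.2%, against 13.4%). Of the 7 falls, 3 were higher in null mock DMSO arrays (42.9%), 2 lower (28.6%) and 2 overlapped, with a median of 0.07. Angptl4 stood 1.89 higher in null mock cells, and Cpt1a and Vnn1 were 0.60 and 0.40 higher there, the reverse of their order in Hras cells.

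The mock arrays gave a separate reading of the sorted genes. In a fit of these 12 arrays alone, 0 genes passed in null mock cells with limma, where 1704 had an unadjusted p under 0.05, and 930 passed in wild-type mock cells (4.66%). That count fell to 466 without wild-type mock GW0742 replicate 1, 562 without replicate 3, and 598 and 478 without wild-type mock DMSO replicates 1 and 2, and lay between 628 and 998 without each other mock array. Of the 79 receptor-dependent rises of Hras cells, 0 passed in null mock cells and 57 rose in wild-type mock cells (72.2%, against 1.9% of all genes), with medians of -0.04 and 0.53. The genotype difference in mock cells was negative and passed for 47 of the 79 (59.5%, against 0.833%), with a median of -0.55. Of the 7 receptor-dependent falls 3 fell in wild-type mock cells (2.77% of all genes fell) and 1, Ephb6, passed for the mock difference (0.41, adjusted p = 0.0373). Of the 103 genes that differed between genotypes in Hras cells, 54 differed in the same direction in mock cells, which is 52.4% of the Hras genes and 18.6% of the 291 mock genes, and 0 passed in opposite directions.

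Most shared rises of Hras cells did not pass in mock cells, though a larger share of them than of all genes rose there in wild-type cells. Their median effect was -0.03 in null and 0.04 in wild-type mock cells, and 22 of 142 rose in wild-type mock cells (15.5%, against 1.9% of all genes) and 4 fell (2.82%, against 2.77%). In mock arrays their class medians lay between 0.03 and 0.04 with GW0742 in wild-type cells, against 0.66 to 0.77 in Hras cells. Their mock genotype difference passed as negative for 15 (10.6%, against 0.833% of all genes) and as positive for 2 (1.41%, against 0.627%).

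Whether the genotype difference itself depended on Hras was tested in a model of all 24 arrays, as the Hras difference minus the mock difference. It passed for 20 genes (0.1%), 5 with a positive value (0.0251%) and 15 with a negative one (0.0752%), and 16 of the 20 also passed for the difference in Hras cells. The count was 69 without null Hras GW0742 replicate 1 and 33 without null Hras DMSO replicate 1. Serpinb9e (-2.16), Ppef1 (-2.0), Pdk4 (-1.55) and Hilpda (-1.36) had the larger genotype difference in Hras cells. Pdk4 in mock cells read 6.98, 7.10 and 6.98 in null cells with GW0742, 6.88, 6.82 and 6.90 in null cells with DMSO, 10.99, 10.93 and 10.90 in wild-type cells with GW0742 and 6.74, 6.78 and 6.87 in wild-type cells with DMSO, a mock difference of -3.99 ± 0.07. The ligand thus separated the genotypes strongly in both states. Ppef1 had a mock difference of -0.15 ± 0.14 (adjusted p = 0.713), and its mock arrays lay between 4.61 and 4.94 in all 4 groups.

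Angptl4 went the other way, with a Hras minus mock value of 1.43. Its mock arrays read 9.35, 9.35 and 9.51 in null cells with GW0742, 9.41, 9.23 and 9.48 in null cells with DMSO, 11.66, 11.62 and 11.67 in wild-type cells with GW0742 and 7.50, 7.52 and 7.44 in wild-type cells with DMSO. The wild-type cells with ligand reached similar levels in both states, and the wild-type DMSO levels lay far apart between them. The mock difference of Angptl4 was -4.14 ± 0.09, against -2.71 ± 0.18 in Hras cells. Acsbg1 behaved likewise, at -1.85 ± 0.11 in mock cells and -0.85 ± 0.08 in Hras cells.

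Klk14 (1.44) and Sostdc1 (1.02) had positive Hras minus mock values. Klk14 read 7.62, 7.63 and 7.64 in null mock cells with GW0742, 7.72, 7.64 and 7.67 in null mock cells with DMSO, 7.31, 7.22 and 7.18 in wild-type mock cells with GW0742 and 7.37, 7.26 and 7.50 in wild-type mock cells with DMSO, with a mock difference of 0.09 ± 0.09. Neither genotype showed a passing response of Klk14 to the ligand there. Cxcl1 and Cxcl2 had mock differences of -0.21 (adjusted p = 0.698) and -0.29 (adjusted p = 0.632), and their Hras minus mock values did not pass, so a dependence on Hras is not shown for these chemokines.

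**Figure D5:**
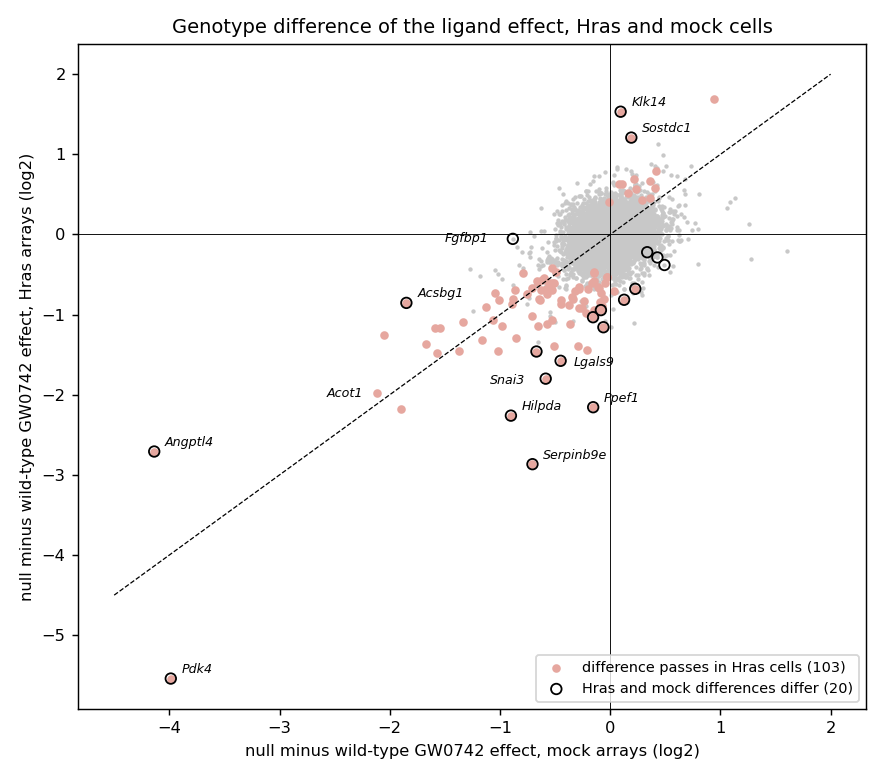
Genotype difference of the GW0742 effect in Hras arrays (vertical axis) against mock arrays (horizontal axis), log2, null minus wild type, 1 point per gene; coloured points are the 103 genes passing in Hras cells and rings the 20 genes whose Hras and mock differences differ from each other. Pdk4 lies lowest at -5.54 and -3.99, Angptl4 lies farthest left at -2.71 and -4.14, and Ppef1 and Serpinb9e lie far below the dashed line of equal differences.

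Markers of other cells that a keratinocyte culture can hold were read on the same arrays. The mean log2 value over 13 measured melanocyte markers was 9.12 to 9.31 in null GW0742 arrays, 8.87 to 9.0 in null DMSO arrays, 8.91 to 9.02 in wild-type GW0742 arrays and 8.83 to 8.97 in wild-type DMSO arrays. The null GW0742 arrays were the highest. Of the 13 markers, 3 rose in null cells (23.1%, against 1.44% of all genes). In wild-type cells 0 rose (2.9% of all genes) and 1 fell (7.69%, against 0.577%). In mock cells with GW0742, 5 of the 13 fell in wild-type cells (38.5%, against 2.77% of all genes) and 0 passed in null cells. For the difference in Hras cells 0 passed in limma's test, with a median of 0.18 and 5 markers at an unadjusted p under 0.05, all positive. Tyrp1, a pigment enzyme that defines melanocytes, rose by 0.54 ± 0.10 in null cells (adjusted p = 0.0238), against 0.09 ± 0.10 in wild-type cells. The null count of this list was 0 to 7 over the refits. Fibroblast markers (15 measured) averaged 8.09 to 8.20 in null GW0742 arrays, 8.14 to 8.36 in null DMSO arrays, 8.02 to 8.11 in wild-type GW0742 arrays and 8.02 to 8.10 in wild-type DMSO arrays.

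Leukocyte and Langerhans cell markers (20 measured) averaged 6.48 to 6.82 over the 12 arrays and endothelial markers (10) 6.82 to 7.03, and 0 of these or the fibroblast markers passed for the difference in limma's test, with or without adjustment. H2-Ab1, a class II antigen presentation gene, was sorted as shared in 3 of 12 refits, with rises of 1.10 ± 0.19 in null and 0.85 ± 0.19 in wild-type cells. Its class II partners H2-Aa, H2-Eb1 and Cd74 did not pass in either genotype. The melanocyte markers moved with the null ligand effect, on which the shared and attenuated classes rest, and their part in those classes was not tested. In whole cultures fewer cells of a type and less RNA per cell cannot be told apart.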

How the data were processed

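Total RNA of primary mouse keratinocytes was hybridised to Affymetrix Mouse Gene 1.0 ST arrays, 24 in all, 3 for each of 8 groups by genotype, virus and ligand. The authors deposited log2 expression values, which the submitters' processing notes credit to RMA, a method that corrects background, equalises array distributions and sums probes; no source used here gives the software or its version. Arrays differed from the mean quantile by at most 0.11, so a shift common to most genes is invisible in these values. The log2 values lay between 2.27 and 14.8 with 0 missing, and no further normalization was applied.

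Of 34760 probe sets, the platform annotation gave 1 gene symbol to 21640, several to 1321 and listed none for 11799. Probe sets with 1 symbol were used, and 954 genes with several kept the one with the highest mean, which left 19937 genes with no filter on dim ones, 19854 of them matched to RefSeq GRCm38.p6. A cell-means model of the 12 Hras arrays was fitted (limma 3.58.1, R 4.3.3; 8 residual and 4.28 prior degrees of freedom), a second one of the 12 mock arrays (8 and 4.19), and one of all 24 arrays for Hras minus mock (16 and 4.43). P-values are limma's, two-sided, with Benjamini-Hochberg adjustment over 19937 genes, with a threshold of 0.05 and no replicate block. Same-numbered arrays of different groups had correlations of their deviations between -0.183 and 0.241 in Hras cells and between -0.0736 and 0.144 in mock cells, and the labels do not say that a number marks a shared culture, so the numbers were not taken as pairs.

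The genes, the 29 lists (608 members, 565 measured), the sorting and the alternatives were chosen with earlier results of these data known, so lists describe and do not support. Each list is given by its counts and medians. Named genes were the 12 largest receptor-dependent rises and 6 falls by difference, 4 attenuated and opposite genes, 6 shared rises and 4 shared falls, 6 genes larger in null, at most 4 genes of each list by size of difference, the 4 largest Hras minus mock values and a fixed set of 14. Acadl, Acadm, Acads, Acadvl, Cpt2, Echs1, Etfa, Etfb, Etfdh, Hadh, Hadha, Slc25a20, Egln3, Bnip3, Tgm1, Vnn1, Plaur, Krt5, Krt14, Cd74, H2-Aa, H2-Eb1, the threshold genes, the 8 genes shared in all refits and the genes under other observations lie outside this rule and were picked once values had been seen. Values of Hras, Areg and Cdkn1a are not analysed here. The Hras fit was also run on simulated data with arrays drawn independently, which cannot show how shifts of single arrays move the counts. Tables and figures were made with Python 3.11.15, pandas 2.3.3 and matplotlib 3.10.9.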

Additional observations from a re-analysis of the deposited data

Results flagged for a closer look

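The genotype difference of the GW0742 effect was itself unequal between Hras and mock cells in 20 genes, by the test in the model of all 24 arrays (0.1% of genes, and 1362 at an unadjusted p under 0.05). Values are the Hras difference minus the mock difference on the log2 scale.

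The negative values, where null cells lost more of the response in Hras than in mock cells or where the sign of the mock difference was positive, were -2.16 for Serpinb9e, -2.0 for Ppef1, -1.55 for Pdk4, -1.36 for Hilpda, -1.21 for Snai3, -1.13 for Lgals9, -1.10 for Aqp11, -0.94 for Prune2, -0.91 for Papss2, -0.88 for Tbc1d8, -0.87 for Gprc5a, -0.86 for Sgtb, -0.79 for Spin4, -0.71 for Gne and -0.56 for Eif4e3. In Papss2, which makes the sulfate donor of the cell, the Hras difference was -0.68 and the mock difference 0.23. Gprc5a, Gne and Eif4e3 did not pass for the difference in Hras cells, and Gprc5a had a mock difference of 0.49 ± 0.07, with an effect of -0.50 in wild-type mock cells.

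The positive values were 1.44 for Klk14, 1.43 for Angptl4, 1.02 for Sostdc1, 1.00 for Acsbg1 and 0.83 for Fgfbp1. Fgfbp1, a carrier of fibroblast growth factors, read 9.11, 9.04 and 9.11 in null mock cells with GW0742, 9.28, 9.27 and 9.44 in null mock cells with DMSO, 9.36, 9.25 and 9.34 in wild-type mock cells with GW0742 and 8.66, 8.62 and 8.74 in wild-type mock cells with DMSO, a mock difference of -0.88 ± 0.08, and it did not pass in Hras cells. Over 24 refits that each left out 1 array, Sgtb missed the threshold in 19, Prune2 in 17, Aqp11 in 15, Spin4 in 12 and Eif4e3 in 4, and the other 15 genes passed in all 24. The null Hras GW0742 arrays, whose median SD over genes was 0.122 against 0.0647 to 0.0798 in the other 7 groups, enter every one of these values, and the part of their spread was not tested.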

How the results depend on the processing

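Over the alternatives run, 104 results of named genes were followed: differences that had passed in the main fit and null effects of shared genes. Of these, 0 changed sign, which is no separate support, since passes on the same arrays chose them. Differences of named genes that had not passed were not followed. Of the gene-by-setting results, 1644 stayed on the same side of the threshold and 424 lost it. A further 5 were tallied as gains only because a main adjusted p just under 0.05 was rounded up to it. The same rounding tallied any loss of such a result as unchanged, so 1644 is an upper and 424 a lower count. Leaving out each array in turn gave 67 to 204 genes for the Hras difference, 375 to 826 for wild-type cells, 15 to 1167 for null cells, 61 to 103 receptor-dependent genes, 11 to 276 shared genes, 173 to 256 for the mock difference and 15 to 69 for Hras minus mock. Among wild-type arrays, the wild-type count was 375 without GW0742 replicate 3 and 419 and 422 without DMSO replicates 1 and 2. The mock difference was 173, 187, 173, 182, 190 and 181 without wild-type DMSO replicates 2 and 3, wild-type GW0742 replicates 1 and 3 and null GW0742 replicates 2 and 3. Hras minus mock was 33 without null Hras DMSO replicate 1 and 69 without null Hras GW0742 replicate 1.

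With trend and robust moderation the counts were 190 for the Hras difference, 568 for null cells, 133 receptor-dependent, 223 shared, 665 for the mock difference and 43 for Hras minus mock. A single model of all 24 arrays gave 344 for the Hras difference, 1219 for wild-type cells, 1001 for null cells, 205 receptor-dependent, 361 shared and 169 for the mock difference, and it held 72 of the 86 receptor-dependent and 138 of the 146 shared genes. Without the dimmest 40% of genes the counts were 540 for null cells, 223 shared, 608 for the mock difference and 33 for Hras minus mock. A minimum fold of 1.5 left 14 for the Hras difference, 53 for wild-type cells, 0 for null cells, 14 receptor-dependent, 0 shared, 22 for the mock difference and 3 for Hras minus mock. A separate weight for each group gave 52 for null cells and 35 shared, and held 79 of the 86 receptor-dependent and 32 of the 146 shared genes; the null arrays alone gave 0.

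The replicate numbers were not taken as pairs, since no pair of Hras groups had all 3 same-numbered correlations over 0.1. In mock cells 1 pair of groups did, null DMSO with wild-type DMSO, at 0.144, 0.118 and 0.132. With the replicate block the counts were 130 for the Hras difference (25 positive and 105 negative), 772 for wild-type cells, 500 for null cells, 92 receptor-dependent, 236 shared, 302 for the mock difference and 20 for Hras minus mock.

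The wild-type mock count of 930 was 1444 with trend and robust moderation, 570 in the single model of all 24 arrays and 27 at a minimum fold of 1.5.

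The limit that touches most is the null ligand effect: its count, and with it the shared and attenuated classes, moved most with single arrays, and the cause was not tested. A miss in null cells does not show that a gene needs the receptor, which is why the difference was required. With 3 arrays a group, small differences remain unsorted, and depth is not a measure here.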

Other observations

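Several receptor-dependent genes outside the lists were seen after sorting, each with a difference that passed in all 12 refits leaving out 1 array. Cxcr2, the receptor on which the chemokines Cxcl1 and Cxcl2 act, read 7.39, 7.31 and 7.12 in null Hras cells with GW0742, 6.86, 7.02 and 7.06 in null Hras cells with DMSO, 7.77, 8.03 and 8.12 in wild-type Hras cells with GW0742 and 6.69, 6.81 and 6.74 in wild-type Hras cells with DMSO, a difference of -0.94 ± 0.14 (adjusted p = 0.00614). Map3k8, a kinase that feeds the ERK cascade, had effects of 0.22 in null and 1.33 in wild-type cells and a difference of -1.12 ± 0.17 (adjusted p = 0.00811). In lipid building and remodelling, Gpat3, which starts triglyceride synthesis, differed by -0.81 ± 0.11 (adjusted p = 0.0035), Lpcat3, which places polyunsaturated chains in phospholipids, by -0.67 ± 0.08 (adjusted p = 0.00194), and the ceramidase Acer2 by -1.02 ± 0.15 (adjusted p = 0.00549).

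Shared rises outside the lists held further members of the interleukin-1 family and epidermal transcription factors. Il1f5 rose by 1.10 in null and 0.86 in wild-type Hras cells, Il1f9 by 0.90 and 0.98, and Il33 by 0.68 and 0.45, in 11, 8 and 6 of the 12 refits. Among regulators of the late epidermis, Grhl1 rose by 0.76 in null and 0.67 in wild-type cells, Elf3 by 0.58 and 0.67, Ovol1 by 0.60 and 0.86, Hopx by 0.64 and 1.03 and Zfp750 by 0.68 and 0.67. These were shared in 2 to 8 of the 12 refits, Elf3 most often. Their null effects passed in 3 to 8 of the refits, so both the class and the calls in null cells depend on single arrays.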
